A study of Mus musculus with 36 samples.

Results

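Mirtrons are microRNAs whose hairpin is a short intron. Splicing cuts both ends of the intron, the lariat is opened by the debranching enzyme, and the folded intron goes straight to Dicer without being cut out of a longer transcript by Drosha. The pathway thus ties the output of these miRNAs to transcription and splicing of a host gene, and the mature strands are usually far less abundant than miRNAs made by Drosha. The 6 rows described here were taken by name from 1963 miRNA rows: mmu-miR-877-5p, mmu-miR-877-3p, mmu-miR-1224-5p, mmu-miR-1981-5p, mmu-miR-1981-3p and mmu-miR-702-3p, which come from 4 hairpins and are written below without the species prefix. The rows were chosen by how they are made, with earlier results of these data known, among them the KO-TRAMP and WT-TRAMP values of miR-877-5p at 30 weeks, so members' values in that comparison are given as a description with no test.

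Small RNA was sequenced from ventral and lateral prostate lobes of male mice in 12 groups with 3 libraries each. The study asked how mutations of ELAC2, an endonuclease that trims the 3′ ends of tRNAs, act in the prostate. WT mice (ELAC2+/+), KO mice (deletion by Pb-Cre, whose probasin promoter is active in prostate epithelium, so other cells keep the gene) and A537T mice (homozygous for an alanine to threonine change in the whole body) were studied without and with 1 copy of TRAMP, a transgene that drives SV40 T antigens from the probasin promoter and gives prostate tumours. Each of these 6 genotypes was taken at 10 weeks and at 30 weeks. KO and A537T mice were made on the background labelled C56NL/6N and bred with TRAMP mice. The methods do not state the strain of those TRAMP mice, and the part of strain in the TRAMP differences was not tested. The study describes these comparisons as being between mice of each line, matched by age and litter, but the labels tie no library to an animal, so the p-values below measure the spread between libraries. A library is named by the number in its deposited column name.

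Libraries held 655455 to 21870210 reads assigned to miRNAs, and the shallowest was library 35, A537T at 10 weeks. The other 35 held at least 4544257. Epithelial miRNAs (6 of 6 markers measured, the miR-200 family and miR-205-5p) made up 3.81% to 10.0% of the reads in all 36 libraries. Skeletal muscle miRNAs (7 of 7 measured) took 0.736% to 30.7% of the reads in the 9 libraries without TRAMP at 10 weeks, against at most 3.09% elsewhere. The tables were normalised separately, so levels are given as reads per 1e6 miRNA reads (RPM), which does not depend on the scaling of a table. The tissue is bulk, and fewer cells of a type cannot be told apart from less RNA per cell.

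Each of the 4 hairpins was placed on GRCm38.p6 with its RefSeq sequence and the GENCODE annotation. Mir877 lies on chromosome 17 from 35960730 to 35960814 on the minus strand and is, base for base, an 85-base intron of Abcf1, a gene for an ABC protein that acts in translation initiation. Mir1224 lies on chromosome 16 from 20604452 to 20604536 on the plus strand and equals an 85-base intron of Vwa5b2. Mir1981 lies on chromosome 1 from 184822407 to 184822488 on the minus strand and equals an 82-base intron of Marc2, which encodes a molybdenum enzyme of the mitochondrial outer membrane. Mir702 lies on chromosome 5 from 136991433 to 136991541 on the plus strand. Its hairpin starts 9 bases before a 102-base intron of Plod3, a lysyl hydroxylase gene, and ends 2 bases before that intron does. The Abcf1 intron is in 1 annotated transcript and the other 3 are in 4 to 6. No annotated gene lies opposite any of the 4 hairpins.

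The hairpins are shown because their ends carry the mirtron design, with the 5p and 3p arms in capitals (5′ to 3′):
Mir877: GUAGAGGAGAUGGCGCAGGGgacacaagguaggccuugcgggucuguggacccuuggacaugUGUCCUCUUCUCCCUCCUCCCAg
Mir1224: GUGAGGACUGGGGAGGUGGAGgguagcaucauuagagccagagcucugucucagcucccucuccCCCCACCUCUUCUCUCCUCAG
Mir1981: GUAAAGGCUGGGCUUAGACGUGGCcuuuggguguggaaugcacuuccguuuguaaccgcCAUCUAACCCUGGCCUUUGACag
Mir702: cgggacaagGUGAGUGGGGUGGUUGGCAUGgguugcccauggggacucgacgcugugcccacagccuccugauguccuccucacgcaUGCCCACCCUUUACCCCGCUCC

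All 4 of the 5p arms begin at the first base of the intron, the GU of the splice donor, and the 3p arms end 0 to 2 bases from its last base. Hairpins that start with GU and end with AG, as Mir877, Mir1224 and Mir1981 do, were 30 of the 1005 hairpins in the table, or 2.99%. These are matches of letters on the transcribed strand and no measure of splicing.

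The mature sequences of the 6 members follow with the seed, bases 2 to 8, in capitals, since the seed is the part that pairs with target mRNAs:
miR-877-5p: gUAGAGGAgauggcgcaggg
miR-877-3p: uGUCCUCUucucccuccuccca
miR-1224-5p: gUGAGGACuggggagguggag
miR-1981-5p: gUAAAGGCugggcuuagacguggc
miR-1981-3p: cAUCUAACccuggccuuugac
miR-702-3p: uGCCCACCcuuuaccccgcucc

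The 6 seeds differ from each other, and none is shared with any other of the 1679 mature miRNAs in the RefSeq table. G made up 11 of 20 bases in miR-877-5p, 13 of 21 in miR-1224-5p and 10 of 24 in miR-1981-5p. C made up 12 of 22 in miR-877-3p, 13 of 22 in miR-702-3p and 8 of 21 in miR-1981-3p. A start with GU, shared by the 3 measured 5p strands, was found in 3.57% of the mature miRNAs.

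**Figure D1:**
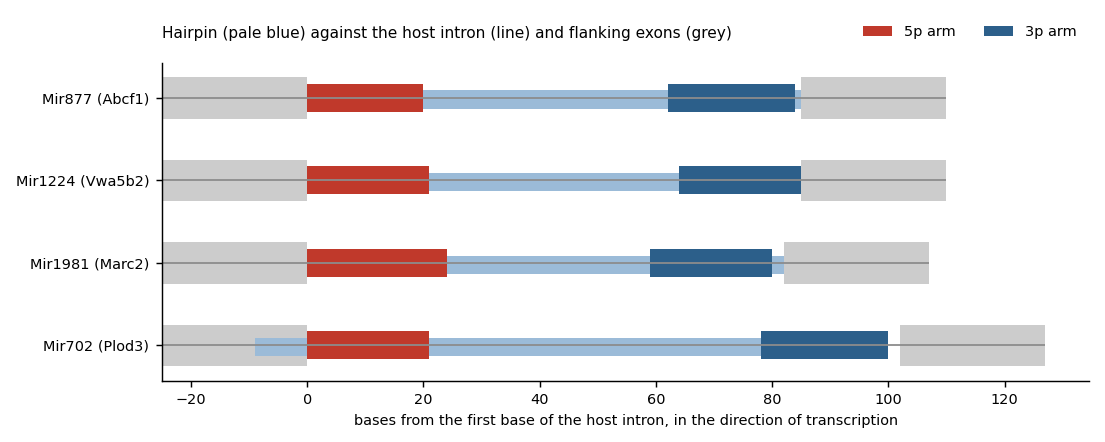
Position of the 4 mirtron hairpins and their arms against the host intron, in bases from the intron's first base in the direction of transcription; grey blocks stand for the flanking exons, drawn 25 bases long. Mir877, Mir1224 and Mir1981 fill their introns of 85, 85 and 82 bases exactly, and Mir702 starts 9 bases before its 102-base intron.

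The members were scarce. Together they took 34537 reads, 0.00726% of all miRNA reads, and miR-1981-5p alone supplied 81.4% of them. Its mean over the 36 libraries was 57.1 ± 17.7 RPM (SD, n = 36), rank 182 of 1963, with a range of 20.97 to 91.5. The other strand of that hairpin, miR-1981-3p, averaged 5.03 ± 2.48 RPM, and miR-877-5p averaged 3.35 ± 1.98 RPM with a range from 0.364 to 7.14. Lower still were miR-1224-5p at 2.59 ± 1.63 RPM and miR-877-3p at 1.58 ± 0.74 RPM. The Plod3 mirtron was near the limit of detection: miR-702-3p had 67 reads in all, at most 6 in a library and none in 14 libraries, so it passed no filter and was not tested. Its level in the 3 KO-TRAMP libraries at 10 weeks was 0, where 3 reads would have been 0.285 to 0.469 RPM. The opposite arms of Mir1224 and Mir702 had 8 reads each.

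Over the 12 groups the members did not keep 1 order. KO-TRAMP at 30 weeks had the highest mean of miR-877-5p, at 6.47 ± 1.14 RPM (SD, n = 3), and KO-TRAMP at 10 weeks had the lowest, at 0.994 ± 0.455. For miR-1981-5p the highest mean was in KO at 30 weeks, at 79.1 ± 16.8 RPM, and the lowest in WT-TRAMP at 10 weeks, at 30.5 ± 8.28. WT at 30 weeks led for miR-1981-3p with 8.60 ± 1.30 RPM, and WT-TRAMP at 10 weeks was again lowest with 1.71 ± 0.26. The highest mean of miR-1224-5p, 5.28 ± 2.14 RPM in A537T at 10 weeks, includes library 35 with 5 reads, and its lowest was 0.893 ± 0.183 in A537T-TRAMP at 30 weeks. For miR-877-3p the means ran from 2.34 ± 0.18 RPM in WT at 30 weeks down to 0.728 ± 0.243 in KO-TRAMP at 10 weeks. Groups next to each other in these orders overlapped with few exceptions. For miR-877-5p, A537T-TRAMP at 30 weeks (2.31 to 2.42 RPM) lay above WT-TRAMP at 30 weeks (1.85 to 1.91), which lay above WT-TRAMP at 10 weeks (1.24 to 1.54). WT-TRAMP at 30 weeks lay above WT-TRAMP at 10 weeks for miR-1224-5p, and KO-TRAMP above WT-TRAMP at 10 weeks for miR-1981-5p. The share of all miRNAs whose groups separate in this way in RPM was not computed, so these separations are no trait of the mirtrons.

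**Figure D2:**
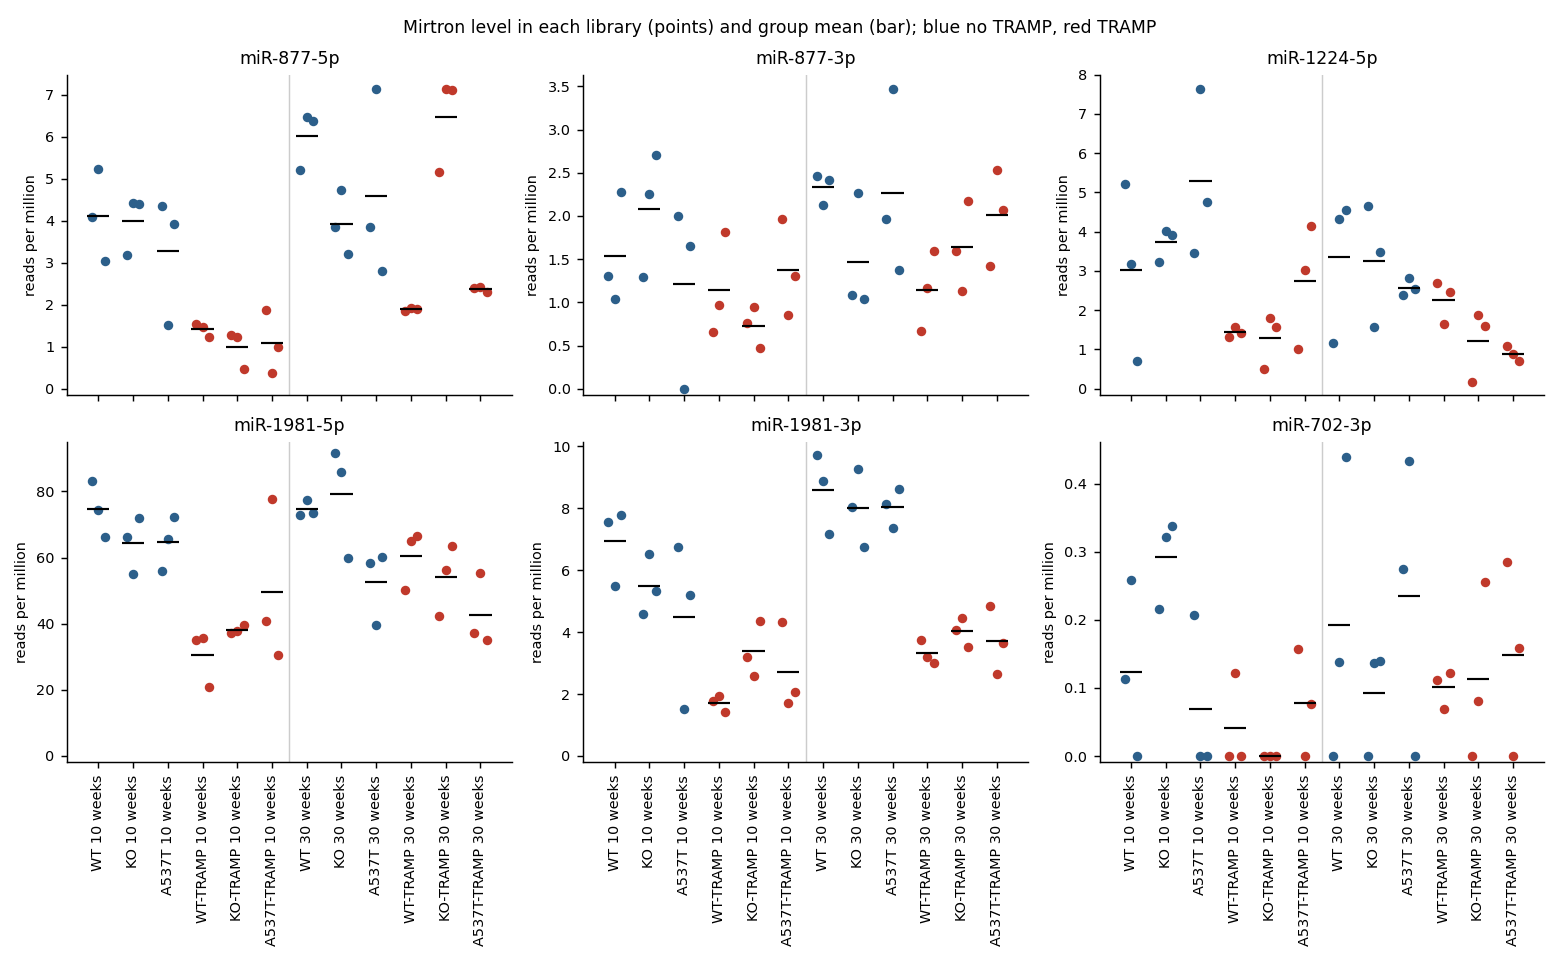
Reads per 1e6 miRNA reads (RPM) of each member in each of the 36 libraries (points; blue without TRAMP, red with TRAMP) and the mean of the 3 libraries of a group (bar), 10 weeks to the left of the grey line and 30 weeks to the right. All 6 TRAMP means of miR-1981-3p lie below the 6 means without TRAMP, and miR-877-5p stands at 5.15 to 7.14 in KO-TRAMP at 30 weeks, above the other TRAMP groups. The shares of all miRNAs that do so were not computed.

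The first comparison asks how the mirtrons differ between TRAMP and non-TRAMP prostates. It was made with limma on log2(RPM + 0.5) over the 514 miRNAs with a mean of at least 1 RPM, as a mean of the 3 lines (WT, KO and A537T), with Benjamini-Hochberg adjustment over all 514. At 10 weeks miR-877-5p, the intron strand of Abcf1, ran from 1.53 to 5.23 RPM (median 4.09) in the 9 libraries without TRAMP and from 0.364 to 1.89 (median 1.24) in the 9 with TRAMP. The ranges met only through library 35, where 1.53 RPM is 1 read. The share of all miRNAs with ranges this far apart was not computed. The log2 difference was -1.38 ± 0.20 (SE; limma adjusted p = 1.27e-06), a level 2.61-fold lower with TRAMP. Each line fell, with -1.25 in WT, -1.63 in KO and -1.27 in A537T (limma adjusted p = 0.00513, 0.000903 and 0.00596). Fits of single lines and those without the KO line, here and below, were added after seeing the data. Their p-values do not test a difference between lines.

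Both strands of miR-1981 were also lower with TRAMP at 10 weeks. miR-1981-5p ran from 54.98 to 83.1 RPM (median 66.2) without TRAMP and from 20.97 to 77.7 (median 37.2) with it. Of the 9 TRAMP libraries 8 lay below the lowest library without TRAMP. The share of all miRNAs that did so was not computed. Its log2 difference was -0.84 ± 0.15 (SE; limma adjusted p = 3.65e-05), and that of miR-1981-3p was -0.97 ± 0.19 (limma adjusted p = 8.63e-05). By line, miR-1981-5p stood at -1.31 in WT, -0.74 in KO and -0.48 in A537T (limma adjusted p = 0.000309, 0.0286 and 0.157). The values of miR-1981-3p were -1.74, -0.64 and -0.54 (limma adjusted p = 0.000147, 0.114 and 0.205). Only the WT value passed for this strand, and the difference between lines was not tested. miR-1224-5p went from 0.701 to 7.63 RPM (median 3.92) to 0.510 to 4.15 RPM (median 1.56), ranges that overlap, with -0.94 ± 0.30 (limma adjusted p = 0.00776). Without the KO line the last difference was -0.76 ± 0.37 (SE; limma adjusted p = 0.0886).

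The partner strand miR-877-3p did not pass at 10 weeks, with -0.33 ± 0.25 (SE; limma adjusted p = 0.26), but that value depended on library 35, where it had 0 reads and 3 reads would be 4.58 RPM. Without library 35 it was -0.57 ± 0.21 (limma adjusted p = 0.0167). In all, 4 of 5 tested members were lower and none was higher with TRAMP at 10 weeks. Among all 514 miRNAs 39.9% were called lower and 25.7% higher, and the median log2 difference was -0.33, against -0.94 over the 5 members. Set against that median, with library 35 kept, miR-877-5p fell by 1.05 on the log2 scale and miR-877-3p differed by 0.00. The second value depends on the 0 reads of miR-877-3p in library 35, so it is no sound contrast of the arms.

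At 30 weeks miR-1981-3p was again lower with TRAMP in every line. It ran from 6.75 to 9.74 RPM (median 8.14) in the 9 libraries without TRAMP. In the 9 with TRAMP it ran from 2.64 to 4.84 (median 3.66), with no overlap. The share of all miRNAs whose libraries separate in this way was not computed. The log2 difference was -1.07 ± 0.19 (SE; limma adjusted p = 4.38e-05), or 2.10-fold lower. It was -1.25 in WT, -0.91 in KO and -1.05 in A537T (limma adjusted p = 0.00627, 0.0332 and 0.0359). miR-1224-5p differed by -0.90 ± 0.30 (limma adjusted p = 0.0162), and without the KO line by -0.74 ± 0.37 (limma adjusted p = 0.118). miR-1981-5p differed by -0.39 ± 0.15 with a limma adjusted p of 0.0411, which was 0.202 without the KO line and above 0.05 in 10 of 36 fits that each leave out 1 library.

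For miR-877-5p the lines did not move together at 30 weeks. In WT all 3 TRAMP libraries (1.85, 1.91 and 1.90 RPM) were below the 3 without TRAMP (5.22, 6.46 and 6.37), and in A537T the TRAMP libraries (2.39, 2.42 and 2.31) were below 3.84, 7.14 and 2.81. In KO the order turned, with 5.15, 7.14 and 7.11 RPM with TRAMP against 3.85, 4.73 and 3.20 without. The mean of the 3 lines was -0.51 ± 0.20 (SE), with -1.44 in WT, -0.74 in A537T and +0.65 in KO, and without the KO line it was -1.09 ± 0.24. The share of all miRNAs whose libraries separate in this way within a line was not computed. The KO-TRAMP and WT-TRAMP values were known when the rows were chosen, so these values are given with no test. The A537T line, which holds none of them, did not pass (limma adjusted p = 0.201). miR-877-3p did not pass, with -0.26 ± 0.25 (limma adjusted p = 0.44).

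So of the 4 members other than miR-877-5p, 3 were called lower and none higher with TRAMP at 30 weeks, where 16.1% of the 514 miRNAs were called lower and 28.2% higher and the median log2 difference was 0.07. The log2 differences of the 4 members ran from -1.07 to -0.26. With miR-877-5p included the median was -0.51. That is the value of miR-877-5p itself, which holds the known libraries, so it is no summary of the other members. Scaling the totals by TMM, which moved the median of all miRNAs at 10 weeks from -0.33 to -0.20 (log2), left the 5 members negative at both ages, with values from -1.30 to -0.26 at 10 weeks and from -1.15 to -0.33 at 30 weeks.

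**Figure D3:**
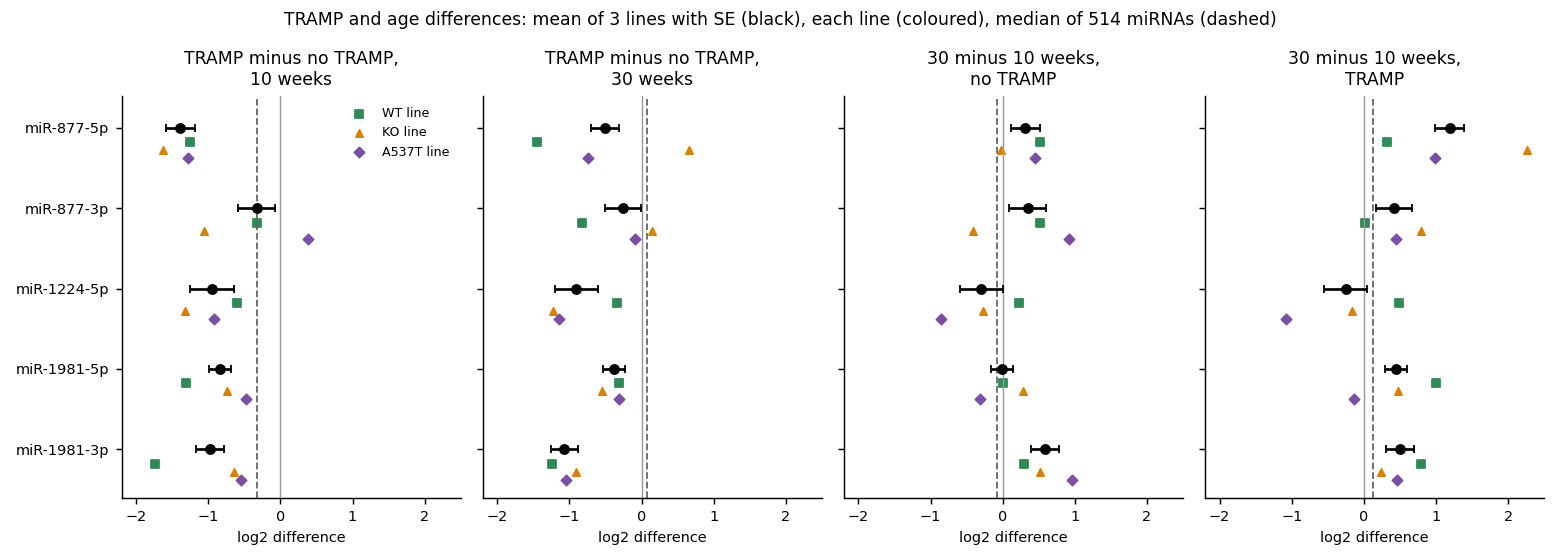
Log2 difference in log2(RPM + 0.5) of the 5 tested members for TRAMP against no TRAMP and for 30 against 10 weeks, as the mean of the 3 lines with its SE (black) and in each line (green squares WT, orange triangles KO, purple diamonds A537T); the dashed line is the median of 514 miRNAs. At 30 weeks the KO point of miR-877-5p is at +0.65 while WT and A537T are at -1.44 and -0.74.

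Other small RNAs from lists set beside the mirtrons went different ways with TRAMP. The lists were chosen with earlier results of these data known. Strands from 1 transcript are counted apart, and the part of how a miRNA is made was not tested. Of 4 miRNA strands that also bypass Drosha, 3 were called lower at 10 weeks and 3 at 30 weeks (medians -0.55 and -0.40). Among all 514 miRNAs 39.9% and 16.1% were called lower. miR-320-3p, whose capped hairpin is made directly by transcription, differed by -0.74 ± 0.12 and -0.72 ± 0.12 (SE; limma adjusted p = 5.54e-06 and 1.1e-05). miR-1839-5p and miR-1839-3p, arms of the same hairpin cut from a snoRNA, differed by -0.43 ± 0.12 and -0.68 ± 0.14 at 10 weeks (limma adjusted p = 0.00208 and 0.000142). miR-484, the fourth, did not pass at either age (0.02 ± 0.19 and 0.11 ± 0.19).

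Of 17 intronic miRNAs that Drosha does cut, 11 were called higher and 1 lower at 10 weeks, and 12 higher and none lower at 30 weeks (medians 0.48 and 0.46). Among all 514 miRNAs 25.7% and 28.2% were called higher. The largest difference among its 4 most abundant strands was that of miR-25-3p, from the Mcm7 intron, at 2.27 ± 0.11 and 2.09 ± 0.11 (SE; limma adjusted p = 9.44e-16 and 4.55e-15). miR-26a-5p rose at 10 weeks by 0.48 ± 0.09 (limma adjusted p = 4.33e-05) and was at 0.04 ± 0.09 at 30 weeks. miR-26b-5p rose at 10 weeks by 0.49 ± 0.10 (limma adjusted p = 0.000189). miR-30e-5p rose at 30 weeks by 0.33 ± 0.09 (limma adjusted p = 0.00242). A mirtron list found in the annotation, hairpins with both ends within 10 bases of an intron's ends, held 23 hairpins and 44 mature rows. Only 5 of these rows reached 1 RPM, all of them members, and the highest of the 38 others were miR-6944-3p at 0.449 RPM, miR-1982-3p at 0.292, miR-7091-5p at 0.237 and miR-7032-3p at 0.183.

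Cell type markers moved with TRAMP as well. The smooth muscle and fibroblast miRNAs (3 of 4 measured; miR-143-3p, miR-145a-5p and miR-214-3p, none at 0) took 6.63% to 39.0% of reads (median 29.3%) without TRAMP and 7.18% to 22.2% (median 10.7%) with TRAMP at 10 weeks. At 30 weeks they took 12.2% to 29.0% (median 23.5%) and 5.52% to 33.6% (median 13.3%). All 3 were called lower at 10 weeks and 1 at 30 weeks. Skeletal muscle markers (6 tested) were lower in 6 at 10 weeks and in 2 at 30 weeks. Epithelial markers were higher in 5 of 6 and lower in 1 at 10 weeks, and higher in 2 and lower in 2 at 30 weeks. White blood cell markers (5 tested) were higher in 2 and lower in 3 at 10 weeks, and higher in 3 at 30 weeks, where they took 0.0731% to 0.170% of reads with TRAMP against 0.0234% to 0.0634% without. Of 2 red cell markers 1 was lower at 10 weeks and 1 higher at 30 weeks, and of 6 nervous and neuroendocrine markers 1 was higher at each age. Among all 514 miRNAs 39.9% were called lower and 25.7% higher at 10 weeks, and 16.1% and 28.2% at 30 weeks. Depth differed too, with a median of 8248079 reads in TRAMP libraries at 10 weeks against 14577693 to 15479952 in the other 3 classes. The part of these in the mirtron differences was not tested.

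The second comparison asks how the mirtrons differed with age. Without TRAMP only 1 of 5 members passed between 10 and 30 weeks. miR-1981-3p rose from 1.53 to 7.77 RPM (median 5.49) at 10 weeks to 6.75 to 9.74 RPM (median 8.14) at 30 weeks, a log2 difference of 0.59 ± 0.19 (SE; limma adjusted p = 0.017), and its partner miR-1981-5p stood at -0.01 ± 0.15 (limma adjusted p = 0.974). Among all miRNAs 33.7% were called, 13% higher and 20.6% lower, or 67 of 173 calls higher, against 95 of 194 with TMM scaling and 36 of 181 without muscle miRNAs in the totals. Without library 35 the rise of miR-1981-3p was 0.40 ± 0.15 (limma adjusted p = 0.0449), and with skeletal muscle miRNAs left out of the totals its value was 0.44 (limma adjusted p = 0.0844). The remaining values were 0.31 ± 0.20 for miR-877-5p, 0.34 ± 0.25 for miR-877-3p and -0.30 ± 0.30 for miR-1224-5p.

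With TRAMP, 1 of the 4 members other than miR-877-5p was called higher at 30 than at 10 weeks, and none lower, where 19.8% of all miRNAs were called higher and 6.61% lower (102 of 136 calls higher, against 77 of 139 with TMM scaling). miR-877-5p went from 0.364 to 1.89 RPM (median 1.24) to 1.85 to 7.14 RPM (median 2.39), with a log2 difference of 1.19 ± 0.20 (SE). The mean includes the KO-TRAMP and WT-TRAMP libraries at 30 weeks known at the choice of rows and is given with no test. The lines gave 2.26 in KO, 0.98 in A537T (limma adjusted p = 0.104) and 0.32 in WT, and without the KO line it was 0.65 ± 0.24. In each line all 3 TRAMP libraries at 30 weeks lay above all 3 at 10 weeks. The share of all miRNAs that did so was not computed, and the KO and WT lines hold the known libraries. The member called higher, miR-1981-5p, differed by 0.45 ± 0.15 (SE; limma adjusted p = 0.0298), which TMM scaling moved to 0.33 (limma adjusted p = 0.122). Its lines gave 1.00 in WT, 0.48 in KO and -0.14 in A537T (limma adjusted p = 0.0193, 0.216 and 0.888). The limma adjusted p was 0.134 without the KO line, and 29 of 36 fits that each leave out 1 library passed. Its partner miR-1981-3p differed by 0.50 ± 0.19 (limma adjusted p = 0.0544) and passed in 5 of 36 such fits. miR-877-3p stood at 0.41 ± 0.25 and miR-1224-5p at -0.25 ± 0.30 (limma adjusted p = 0.221 and 0.554). White blood cell miRNAs (5 of 5 measured, none at 0) took 0.0275% to 0.0731% of reads in TRAMP libraries at 10 weeks and 0.0731% to 0.170% at 30 weeks, and their part in these values was not tested.

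The TRAMP effect at 30 weeks minus that at 10 weeks was 0.87 ± 0.28 (SE, log2) for miR-877-5p as a mean of the 3 lines, where the median over all miRNAs was 0.32. It was 2.28 in KO, 0.54 in A537T and -0.20 in WT, 0.17 ± 0.34 without the KO line, and 0.71 with TMM scaling. The KO and WT values hold the libraries known when the rows were chosen, so they are given with no test. The A537T value, which holds none of them, did not pass (limma adjusted p = 0.637). Of the 4 other members none passed, where 37% of all miRNAs were called, 28% with a higher and 8.95% with a lower TRAMP effect at 30 weeks (144 of 190 calls, against 99 of 177 with TMM scaling).

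The third comparison sets each mutant against its control within 1 deposited table, on log2(normalised count + 1) over miRNAs with a mean of at least 10. None of the 8 comparisons had a miRNA past an adjusted p of 0.05 in limma (0% called), while the unadjusted p was under 0.05 for 15 to 104 miRNAs, or 3.23% to 18.8%. DESeq2 on the recovered reads called up to 52 in a comparison, and limma called 9 to 172 in 5 of the 8 once 1 of 7 single libraries was left out, 172 of them in KO-TRAMP at 30 weeks without library 16. The 2 mutants of an age and background share their control libraries.

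KO-TRAMP against WT-TRAMP at 30 weeks holds the values that were known when the rows were chosen. miR-877-5p had 72.5, 98.4 and 90.8 normalised counts in KO-TRAMP libraries 16, 17 and 18 and 27.4, 29.5 and 28.7 in the WT-TRAMP libraries, a log2 difference of 1.57 ± 0.24 (SE). The groups do not overlap. For the other strand of the same intron, miR-877-3p, the groups overlap, with 22.5, 15.6 and 27.8 normalised counts against 9.97, 17.9 and 24.1 and a log2 difference of 0.37 ± 0.43. The remaining members overlapped between the groups, at -0.33 ± 0.20 for miR-1981-5p, 0.11 ± 0.24 for miR-1981-3p and -1.45 ± 0.82 for miR-1224-5p. In this comparison 13.4% of 553 miRNAs lay without overlap higher in KO-TRAMP. Nervous and neuroendocrine miRNAs (6 of 6 measured, none at 0, among them miR-375-3p and miR-9-5p) took 1.89% and 1.51% of reads in KO-TRAMP libraries 17 and 18, 0.564% in library 16 and 0.282% to 0.812% in the other 33. The part of the marker shares in these values was not tested.

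In the A537T-TRAMP libraries at 30 weeks miR-877-5p had 34.7, 28.5 and 35.3 normalised counts against 27.3, 28.4 and 28.1 in WT-TRAMP, with 0.22 ± 0.23 (SE), given with no test since these controls were among the known values. These groups do not overlap, where 11.4% of 535 miRNAs lay higher without overlap. miR-1224-5p was at 15.7, 10.3 and 10.96 against 39.7, 24.4 and 36.2, with -1.36 ± 0.33 (limma adjusted p = 0.172). miR-1981-5p was at 541, 652 and 537.2 against 742, 964 and 983, with -0.63 ± 0.16 (limma adjusted p = 0.184). All 3 mutant libraries lay below all 3 controls for both, and 10.7% of all miRNAs tested did so. In RPM this held for miR-1224-5p, while miR-1981-5p overlapped (A537T-TRAMP up to 55.4, WT-TRAMP down to 50.1). DESeq2's Wald test put miR-1981-5p at an adjusted p of 0.0351, and limma without WT-TRAMP library 11 put miR-1224-5p at 0.0472.

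Without TRAMP at 30 weeks miR-877-5p had 62.9, 76.2 and 52.3 normalised counts in KO and 86.9, 79.6 and 82.9 in WT. The KO libraries were all lower, where 6.57% of 533 miRNAs were so, and the log2 difference was -0.39 ± 0.26 (SE; limma adjusted p = 0.57). In A537T it was -0.41 ± 0.33 (limma adjusted p = 0.735), with overlapping groups. miR-1981-5p differed by -0.45 ± 0.28 in A537T (limma adjusted p = 0.684), and its normalised counts overlapped. In RPM its A537T libraries (39.5 to 60.1) all lay below WT (72.8 to 77.5). The share of all miRNAs that did so in RPM was not computed. At 10 weeks the KO libraries were below all controls for miR-1981-5p (-0.41 ± 0.21, limma adjusted p = 0.351) and for miR-1981-3p (-0.53 ± 0.28, limma adjusted p = 0.366), in a comparison where 15.3% of 561 miRNAs lay lower without overlap. In RPM both overlapped, with KO up to 71.9 and WT down to 66.2 for miR-1981-5p, and KO up to 6.52 and WT down to 5.49 for miR-1981-3p. A537T at 10 weeks gave -0.36 ± 0.22 and -0.98 ± 0.61 for these strands (limma adjusted p = 0.88 for both). miR-1224-5p stood at 0.49 ± 0.57 in KO and 0.95 ± 0.61 in A537T at 10 weeks (limma adjusted p = 0.636 and 0.88). The A537T value includes library 35, where it had 5 reads.

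With TRAMP at 10 weeks both strands of miR-1981 pointed up in both mutants without passing the test. miR-1981-3p had 29.1, 17.6 and 38.6 normalised counts in KO-TRAMP and 11.1, 14.6 and 10.8 in WT-TRAMP, with 1.10 ± 0.39 (SE; limma adjusted p = 0.862). It had 42.0, 17.35 and 18.5 in A537T-TRAMP and 13.3, 17.27 and 12.6 in the same WT-TRAMP libraries in that table, with 0.71 ± 0.42 (limma adjusted p = 0.796). Neither pair of groups overlapped, where 4.96% of 464 miRNAs in the KO-TRAMP and 5.02% of 478 in the A537T-TRAMP comparison lay higher without overlap. In RPM the A537T-TRAMP libraries, from 1.70 up, overlapped with WT-TRAMP, up to 1.95, and KO-TRAMP did not. miR-1981-5p differed by 0.57 ± 0.25 and 0.82 ± 0.39, with overlapping groups. In RPM KO-TRAMP (37.2 to 39.5) lay above WT-TRAMP (20.97 to 35.6) for this strand. The share of all miRNAs that did so in RPM was not computed. miR-1224-5p stood at -0.11 ± 0.49 in KO-TRAMP and 0.86 ± 0.50 in A537T-TRAMP (limma adjusted p = 0.948 and 0.796). Neither strand of miR-877 reached a mean of 10 normalised counts in the KO-TRAMP table at 10 weeks, so they were not tested there.

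**Figure D4:**
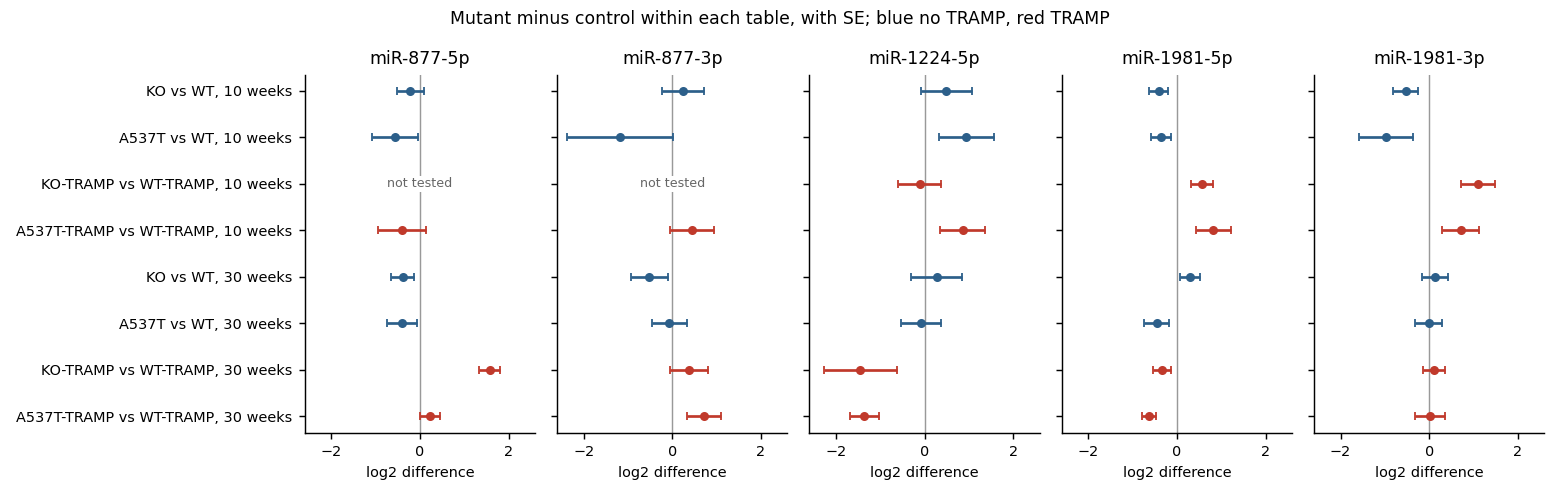
Log2 difference between mutant and control libraries, 3 against 3, with its SE for the 5 tested members in the 8 deposited tables (blue without TRAMP, red with TRAMP). The miR-877-5p point of KO-TRAMP at 30 weeks is at 1.57, and the miR-877-3p point of the same table is at 0.37.

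The balance of the 2 arms does not depend on how libraries are scaled. For miR-877 the 5p strand made up 66.4% to 79.6% of the reads of both arms, as means of the 6 groups without TRAMP, and the A537T 10-week mean of 79.6% includes library 35 with its 1 read. In TRAMP prostates at 10 weeks the means were 40.8% ± 9.75 in A537T-TRAMP, 56.3% ± 6.25 in KO-TRAMP and 56.9% ± 14.9 in WT-TRAMP (SD, n = 3), from as few as 6 reads of both arms in a library. At 30 weeks KO-TRAMP stood at 79.7% ± 5.68, with 76.3%, 86.3% and 76.6% in its libraries, A537T-TRAMP at 54.8% ± 7.12 and WT-TRAMP at 63.3% ± 9.52. The 95% Wilson intervals of the KO-TRAMP libraries ran from 65.6% to 91.6%, and those of WT-TRAMP from 41.6% to 84.0%. For miR-1981 the 5p share was between 86.5% and 94.7% in every group. These values are given without a test, and the intervals cover counting error only.

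**Figure D5:**
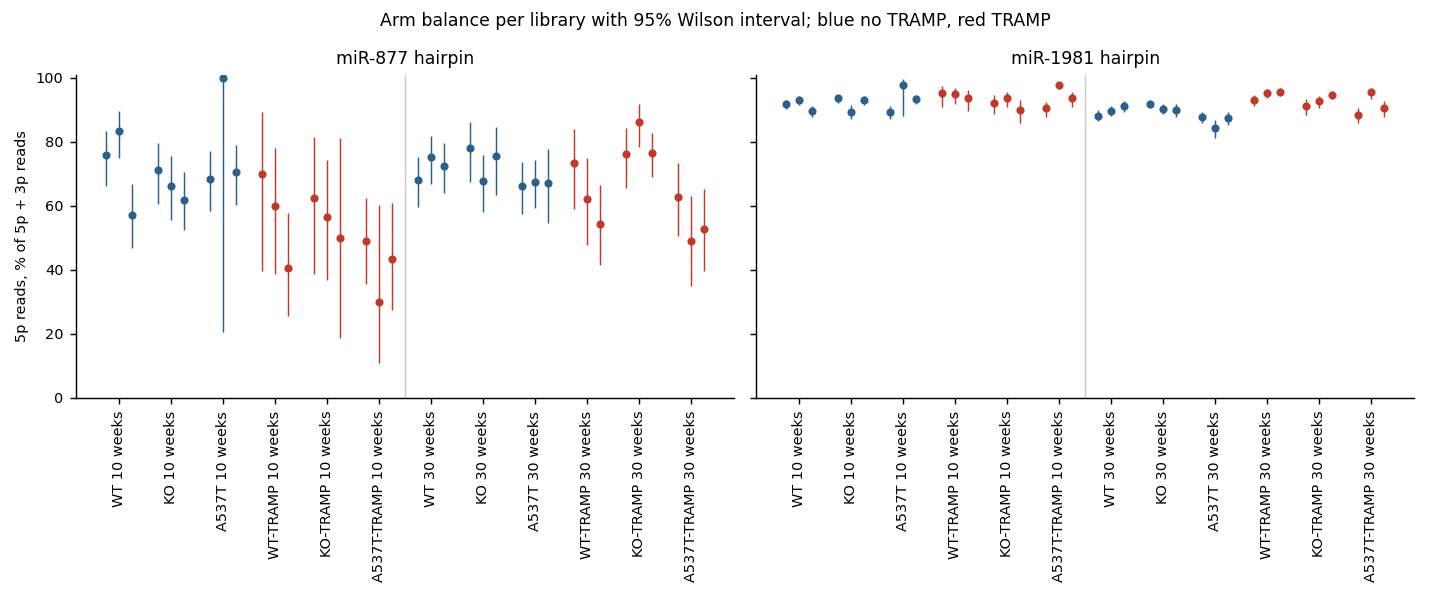
Reads of the 5p strand as a percent of the reads of both arms for the miR-877 and miR-1981 hairpins in each library, with the 95% Wilson interval of counting error (blue without TRAMP, red with TRAMP). miR-877 spreads from 30.0% to 100% (1 read, library 35), and miR-1981 stays above 84%.

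Levels of the 2 strands of a hairpin were compared across libraries within each background, in log2(RPM + 0.5) over 18 libraries each. The 6 groups in a background differ in their means and the TRAMP set holds the known miR-877-5p values, so these are descriptions with no p. For miR-877, Pearson's r was 0.78 and Spearman's rho 0.56 without TRAMP, and r was 0.43 without libraries 35 and 26, the farthest from the median. With TRAMP r was 0.52 and rho 0.59, and r was 0.57 without libraries 17 and 18. For miR-1981, r was 0.09 and rho 0.31 without TRAMP, and 0.26 and 0.25 with TRAMP.

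The miRNAs most like each member, by Pearson's r of log2(RPM + 0.5) over the 36 libraries among 509 others, were as follows. These libraries share their depth and cell mixture between miRNAs, so the values are a description. Nearest to miR-877-5p were miR-1839-3p (r = 0.84), miR-700-5p (0.77) and miR-532-3p (0.77). Within backgrounds, r was 0.85 to 0.87 in the 18 TRAMP libraries and 0.34 to 0.66 in the 18 others for these 3. For miR-877-3p they were miR-3474 (0.68), miR-3084-3p (0.60) and miR-532-3p (0.60). For miR-1224-5p the 3 nearest were the smooth muscle miRNAs miR-145a-5p (0.84), miR-145a-3p (0.82) and miR-143-3p (0.79), and KO-TRAMP library 16, which had the lowest share of smooth muscle and fibroblast miRNAs (5.52%), also had the lowest miR-1224-5p (0.178 RPM, 2 reads); the part of that share was not tested. miR-1981-5p was nearest to miR-139-5p, miR-24-2-5p (both 0.68) and miR-34a-5p (0.67), and miR-1981-3p to miR-664-3p (0.80), miR-6516-5p (0.75) and miR-30c-5p (0.72). Several of these did not hold within a background: with TRAMP r was 0.15 for miR-664-3p and 0.06 for miR-6516-5p (0.71 and 0.93 without), and without TRAMP it was 0.30 for miR-30c-5p and -0.16 to 0.29 for the 3 nearest to miR-1981-5p (0.50 to 0.59 with TRAMP). For miR-1224-5p it was 0.65 to 0.80 and for miR-877-3p 0.42 to 0.80 in either background. Between mirtrons of different host genes, r ran from -0.18 for miR-877-3p with miR-1224-5p to 0.70 for miR-877-5p with miR-1981-3p.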

How the data were processed

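Libraries from ventral and lateral lobes were made with the Illumina miRNA-Seq protocol. Per the study's methods, paired reads were merged and trimmed of adapters, then mapped and counted with mirDeep2 against GRCm38 and miRBase, and identical mature sequences were summed under 1 name. The authors deposited 8 tables of counts divided by DESeq2 size factors, a signal without length scaling, each normalised on its own. Strand use in counting and the handling of reads that fit several sites beyond this are not given in the sources used here.

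Columns name a library number but no group, so groups rest on the table names: columns shared by 2 tables were read as the WT control, and Mut as A537T. No column was left without a group. Dividing a column by its smallest value gave whole reads for 100% of values (tolerance 1e-06), from which RPM, counting intervals at the 95% level and the 3-read limit were computed. Reads carry no molecular identifiers, so intervals and limits cover counting error only. The closest pair of the 36 replicate pairs differed by a chi-square of 117 per degree of freedom, so none was counted as 1 sample.

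Tests used limma 3.58.1 with a variance trend (R 4.3.3), two-sided, Benjamini-Hochberg, threshold 0.05, and fold changes include the pseudocount, which understates changes of scarce miRNAs. Alternatives used edgeR 4.0.16, DESeq2 1.42.0, other pseudocounts, filters and scalings, and each library left out; the lines taken apart were added after seeing the data. The fits were tested on simulated data. Members and lists were chosen with earlier results of these data known. All 6 members are named throughout, with the 3 miRNAs most like each and up to 4 of the most abundant of each list. Sequences are RefSeq's (6 of 6 matched), placed on GRCm38.p6 with GENCODE. The deposited comparison columns (fold changes and s-values) were not used.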

Additional observations from a re-analysis of the deposited data

Results flagged for a closer look

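The TRAMP effect on miR-877-5p at 30 weeks minus that at 10 weeks was 0.87 (log2), set apart by its fit over all libraries. The fit holds the KO-TRAMP and WT-TRAMP values at 30 weeks that were known when this miRNA was chosen, so it is no test of the difference. The value was 0.17 without the KO line and 0.71 with TMM scaling.

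At 30 weeks miR-877-5p moved opposite ways in different lines or backgrounds with every library on 1 side. The share of all miRNAs whose libraries separate in this way in RPM was not computed. In log2(RPM + 0.5), KO lay 0.57 below WT (-0.57) without TRAMP, while KO-TRAMP lay 1.53 above WT-TRAMP. Read the other way, TRAMP gave -1.44 in WT and -0.74 in A537T but 0.65 in KO. In KO the TRAMP effect was -1.63 at 10 weeks and 0.65 at 30 weeks. The differences between lines and between backgrounds were not tested. The difference between ages in KO was 2.28 ± 0.49 (SE), given with no p because the KO-TRAMP values at 30 weeks were known when this miRNA was chosen. Groups of 3 are too small for the search for single outlying libraries.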

How the results depend on the processing

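No paired analysis was possible because the deposited columns carry library numbers but no replicate numbers. Over the alternatives that keep all libraries and all lines, 308 of 329 values kept their direction and side of the threshold, and the lines taken apart, chosen after seeing the data, kept 59 of 100. Calls on members that changed with a setting were few. Without a filter the 30-week TRAMP difference was lost for miR-1981-5p (limma adjusted p = 0.0836). In TRAMP, miR-1981-5p lost its age difference without a filter and in edgeR (adjusted p = 0.0617 and 0.201). In edgeR miR-877-3p passed at 10 weeks (adjusted p = 0.0489) and the age difference of miR-1981-3p without TRAMP was lost (adjusted p = 0.0607). With muscle miRNAs left out of the totals, the age difference in the TRAMP effect of miR-1981-5p passed (limma adjusted p = 0.0231).

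DESeq2 on recovered reads called 30 miRNAs in KO at 10 weeks and 52 in KO at 30 weeks, 5 in A537T at 30 weeks, 2 in A537T-TRAMP at 10 weeks, 27 in A537T-TRAMP and 48 in KO-TRAMP at 30 weeks, where limma called 0. Limma called 1 in A537T-TRAMP at 30 weeks without a filter and 1 in KO at 30 weeks with a mean of at least 100. With a mean of at least 10 RPM the pooled counts were 212 and 135 for TRAMP at 10 and 30 weeks, 111 and 85 for age without and with TRAMP, and 124 for the difference between ages, from fewer miRNAs tested (298). The cause of the other changes was not tested.

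Some values changed sign. In single lines they were 0.39 for miR-877-3p with TRAMP at 10 weeks in A537T (0.033 in WT and A537T together), and 0.65 for miR-877-5p and 0.15 for miR-877-3p with TRAMP at 30 weeks in KO. For age without TRAMP they were -0.024 for miR-877-5p, -0.41 for miR-877-3p and 0.28 for miR-1981-5p in KO, and 0.23 for miR-1224-5p and 0.0070 for miR-1981-5p in WT. For age with TRAMP they were 0.49 for miR-1224-5p in WT and -0.14 for miR-1981-5p in A537T. For the TRAMP effect between ages they were -0.20 for miR-877-5p, -0.51 for miR-877-3p and 0.50 for miR-1981-3p in WT, -0.48 for miR-877-3p and -0.23 for miR-1224-5p in A537T, and -0.49 for miR-877-3p in WT and A537T together. By setting, miR-1981-5p without TRAMP had an age difference of 0.011 in edgeR and 0.10 with TMM. Scaling to the library total gave -0.10 for miR-1981-3p in KO at 30 weeks. Between ages, the TRAMP effect was -0.037 for miR-877-3p and -0.048 for miR-1224-5p with a pseudocount of 0.1 RPM, -0.062 and -0.14 with TMM, -0.20 for miR-1224-5p in edgeR and 0.048 for miR-1981-3p without muscle miRNAs.

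Leaving out 1 library at a time, where a lone pair keeps the spread of all libraries in its fit, 1021 of 1098 values were kept. Counts of calls ran from 0 to 12 in A537T (12 without library 26) and 0 to 30 in A537T-TRAMP (30 without library 11) at 30 weeks, from 0 to 91 in KO at 10 weeks (91 without library 28, 9 without library 32), 0 to 69 in KO (69 without library 19, 20 without library 23) and 0 to 172 in KO-TRAMP (172 without library 16) at 30 weeks. Signs changed for miR-877-3p in A537T at 10 weeks (-1.95 to 0.20) and 30 weeks (-0.35 to 0.16) and in KO at 10 weeks (-0.0030 to 0.69), for miR-877-5p in A537T-TRAMP (-0.90 to 0.11) and KO (-0.38 to 0.0068) at 10 weeks, for miR-1224-5p in A537T at 30 weeks (-0.56 to 0.21), KO at 10 weeks (-0.19 to 0.91) and 30 weeks (-0.22 to 0.72) and KO-TRAMP at 10 weeks (-0.37 to 0.33), and for miR-1981-3p in A537T (-0.18 to 0.23), A537T-TRAMP (-0.23 to 0.35) and KO (-0.041 to 0.35) at 30 weeks. The age difference of miR-1981-5p without TRAMP ran from -0.046 to 0.057, and the TRAMP effect between ages from -0.071 to 0.32 for miR-877-3p, -0.13 to 0.26 for miR-1224-5p and -0.22 to 0.091 for miR-1981-3p. Depth limits the scarce members, since 1 read was 1.53 RPM in library 35.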
